A study of Mus musculus with 34 samples.

Results

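The genes described here are 10 enzymes of ceramide and sphingosine phosphate turnover: the ceramide synthases Cers2, Cers5 and Cers6, the ceramidases Asah1, Acer2 and Acer3, the sphingosine kinases Sphk1 and Sphk2, the phosphatase Sgpp1 and the lyase Sgpl1. The rule takes them by symbol and uses no measured value, and each matched a gene ID among the 54532 of the count tables, so 10 of 10 were found. Blood mRNA was sequenced from wild-type (WT) mice in 4 groups, labelled ALY688+LPS (7 mice), LPS (4 mice), ALY688 (10 mice) and PBS (9 mice). ALY688 is an agonist of the adiponectin receptors, LPS (lipopolysaccharide) is an endotoxin from the surface of bacteria, given here as a sublethal model, and PBS is phosphate-buffered saline. The sources used here state no strain, sex, age, dose or sampling time. The series text names plasma for the ALY688 experiment and whole blood for the LPS experiment, whereas all samples carry the label blood. Mice with LPS may come from another experiment than mice without it, so LPS treatment and experiment cannot be told apart.

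Ceramide is built by joining a fatty acyl chain to a sphingoid base, a step catalysed by ceramide synthases that differ in the chain length they prefer. Ceramidases cut ceramide back to sphingosine, sphingosine kinases phosphorylate sphingosine to sphingosine 1-phosphate (S1P), and S1P is either dephosphorylated by phosphatases such as Sgpp1 or cleaved for good by the lyase Sgpl1. Adiponectin receptors are linked to this pathway because their activation has been associated with ceramidase activity, and in blood S1P is carried largely by red cells, which lack the lyase, and guides lymphocytes out of lymphoid organs.

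Libraries held 9554964 to 17338214 counts, and globin genes took 18.5% to 64.4% of them. The globin percentage was 18.46% to 43.69% in LPS mice and 45.15% to 64.36% in PBS mice, without overlap. In LPS against PBS, a fit with this percentage as a covariate could therefore hardly separate it from treatment. In 6 libraries (ALY688+LPS mice 6 and 8, ALY688 mouse 7, and PBS mice 5, 6 and 9) fewer than 16000 genes had a count. These libraries had the lowest scaling factors, 0.333 to 0.629, and values without them are given beside the results that they moved most. Levels are CPM (counts relative to library size) scaled with TMM, a method that adjusts for library composition, and fold changes are log2 values from edgeR with their standard error (SE). The labelled tissue was checked against marker genes of red cells, platelets, neutrophils, monocytes, B cells, T cells and NK cells, and every matched marker of these lists had counts in all 4 groups. In whole-tissue RNA such as this, fewer cells of a type and less RNA per cell cannot be told apart.

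**Figure D1:**
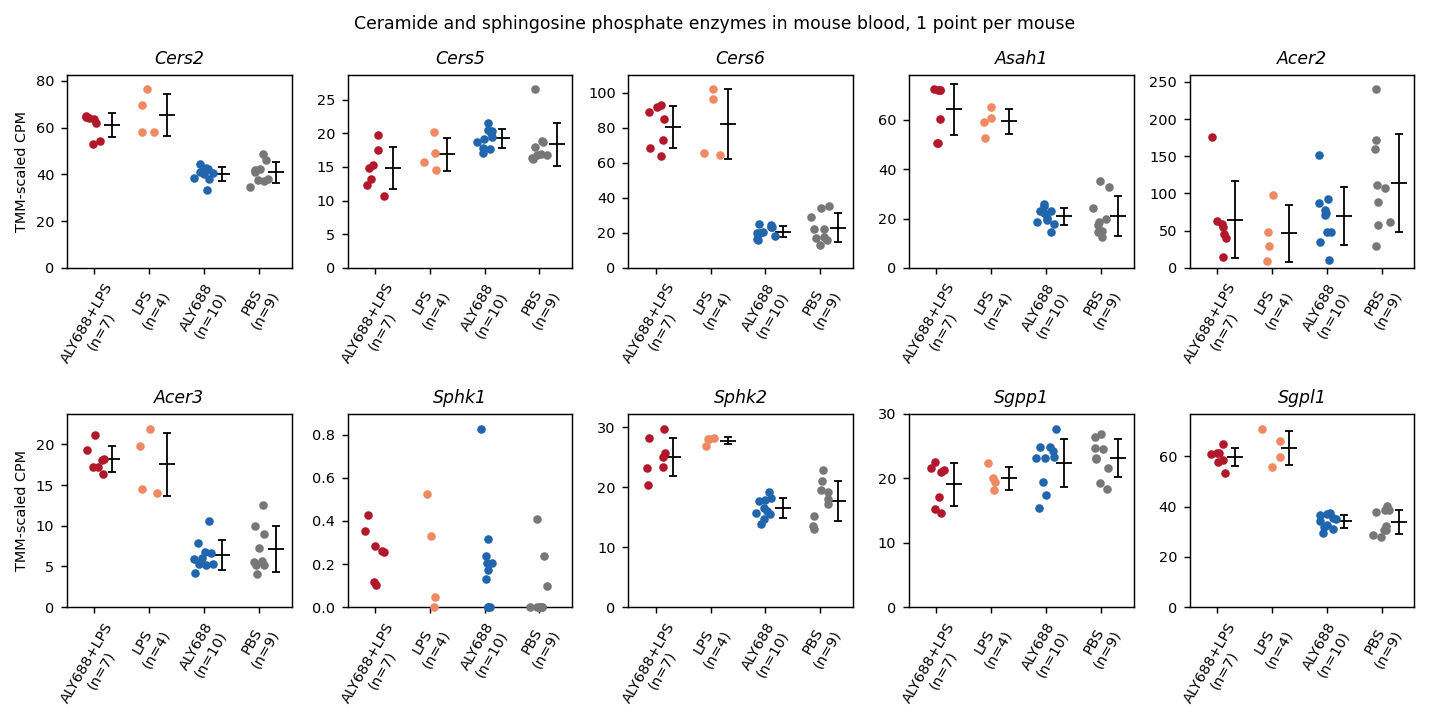
Level of each of the 10 enzymes in TMM-scaled CPM (linear axes starting at 0), 1 point per mouse, in the ALY688+LPS, LPS, ALY688 and PBS groups; the bar and whiskers beside the points are the mean and SD, left out for Sphk1, which had few counts. Cers2, Cers6, Asah1, Acer3, Sphk2 and Sgpl1 lie higher in the groups with LPS than in those without it, whereas the Acer2 points are widely spread in all 4 groups.

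To compare the enzymes with each other, levels were divided by exon length (CPM per kb). In ALY688+LPS mice Asah1 at 18.98 ± 3.07 CPM per kb (SD, n = 7) stood above Cers2 at 16.6 ± 1.40 in all 7 mice, although the mean ± SD ranges overlapped. In LPS mice Cers2 at 17.8 ± 2.44 and Asah1 at 17.5 ± 1.52 CPM per kb (n = 4) had overlapping ranges, followed by Sgpl1 at 10.3 ± 1.09 and Cers6 at 9.27 ± 2.23. In ALY688 mice Cers2 led at 10.9 ± 0.857 CPM per kb (n = 10), ahead of Acer2 at 9.73 ± 5.37. In PBS mice the order was, from the highest, Acer2 at 15.9 ± 9.26 CPM per kb (n = 9), Cers2 at 11.1 ± 1.23, Asah1 at 6.25 ± 2.40 and Sgpl1 at 5.53 ± 0.783. Next came Cers5 at 5.18 ± 0.908, Sphk2 at 4.26 ± 0.805, Sgpp1 at 4.09 ± 0.523, Cers6 at 2.60 ± 0.919, Acer3 at 0.467 ± 0.182 and Sphk1 at 0.0174 ± 0.0308. Acer2 stood above Cers2 in only 6 of 9 PBS mice, and the mean ± SD ranges of neighbours from Asah1 to Sgpp1 overlapped, so this part of the order was not resolved. Cers6 ranked 4 of the 10 enzymes in both groups with LPS, against rank 8 in both groups without it.

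The first comparisons asked how these transcripts differed with LPS. Higher levels with LPS were found for the synthases Cers6 and Cers2, the ceramidases Asah1 and Acer3, the kinase Sphk2 and the lyase Sgpl1, both against PBS and, on top of ALY688, against ALY688 alone. The sizes ran from a log2 fold change of 0.60 for Cers2 to 1.96 for Cers6. Of the 10 enzymes 9 passed the filter on low counts in every comparison, and Sphk1 did not. In LPS against PBS 6 of 9 were called higher and 0 lower at an adjusted p below 0.05 (edgeR quasi-likelihood test with Benjamini-Hochberg adjustment over all genes), against 20.9% of 12353 genes called higher and 17.9% called lower (38.7% together). In ALY688+LPS against ALY688 the same test called 6 of 9 higher and 1 lower, against 26.4% and 26.6% of 12266 genes (53% together). Without TMM scaling the split of all genes was different, with 45.3% called higher and 2.4% lower in LPS against PBS, and 15% and 9.82% in ALY688+LPS against ALY688. The enzymes called were then 7 and 4, all higher. This setting shifted the median of all genes by 1.08 in LPS against PBS, and relative to that median the 6 enzymes had log2 fold changes of 0.70 to 1.88. With TMM scaling, the 6 called higher were the same genes in both, and these comparisons share no libraries. Across the 12075 genes tested in both, 18.6% were called higher in both. Of all genes called higher in LPS against PBS, 87.2% were also called higher in ALY688+LPS against ALY688, and 69.5% the other way round. Such agreement was therefore common among called genes and not particular to the enzymes. The median log2 fold change of the 9 enzymes was 0.68 for LPS against PBS and 0.61 for ALY688+LPS against ALY688, with medians over all genes of -0.04 and -0.05.

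For all 6 of these genes the lowest mouse with LPS stood above the highest mouse without it in each comparison, which held for 13.2% of all genes in LPS against PBS and for 12.6% in ALY688+LPS against ALY688. Without the 6 libraries of few detected genes the 6 genes remained called in both comparisons, with log2 fold changes of 0.69 to 1.86 for LPS against PBS and 0.66 to 2.05 for ALY688+LPS against ALY688.

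**Figure D2:**
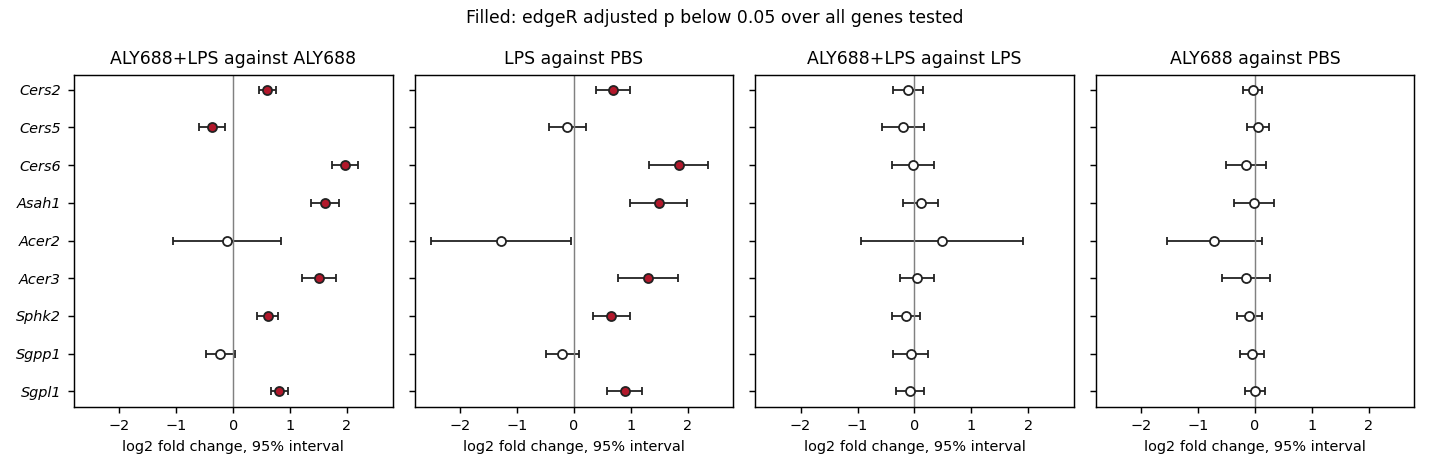
Log2 fold changes of the 9 tested enzymes in ALY688+LPS against ALY688, LPS against PBS, ALY688+LPS against LPS, and ALY688 against PBS; points are estimates, bars 95% confidence intervals, and filled points have an edgeR adjusted p below 0.05 over all genes tested. Cers6, Asah1 and Acer3 have the points farthest to the right in both comparisons across LPS, no point is filled in the comparisons of ALY688, and the intervals of Acer2 are the widest in each panel.

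Promoter windows are shown for enzymes called higher in both comparisons across LPS, a direction shared by 18.6% of all genes tested in both. Each is a RefSeq window on mouse GRCm38.p6 from 250 bases before to 50 bases after a transcription start, the start nearest the 5′ end of the gene. Of the 10 enzymes 9 matched an entry, and Asah1 did not. Capitals mark matches, on either strand, to the 10 motifs searched. The GC box was spelled GGGCGG, the E-box motif CACGTG, the CCAAT box by its own letters and the TATA box motif TATAAA. The AP-1 motif was spelled TGANTCA, the C/EBP motif TTGCNNAA, the STAT motif TTCNNNGAA, the GATA motif AGATAA and the ETS motif AGGAAGT, while the longer NF-kB motif is given by its name alone. Cers6 lies at chr2:68861191-68861490 (plus strand), Cers2 at chr3:95314940-95315239 (plus strand). Acer3 lies at chr7:98321159-98321458 (minus strand), Sphk2 at chr7:45717953-45718252 (minus strand) and Sgpl1 at chr10:61147635-61147934 (minus strand).
Cers6: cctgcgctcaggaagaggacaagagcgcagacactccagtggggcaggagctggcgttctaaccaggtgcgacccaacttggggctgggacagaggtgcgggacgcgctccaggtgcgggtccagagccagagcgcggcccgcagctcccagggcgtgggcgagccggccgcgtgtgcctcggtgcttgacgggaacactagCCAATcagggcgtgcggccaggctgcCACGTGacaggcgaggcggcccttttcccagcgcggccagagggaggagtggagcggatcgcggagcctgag
Cers2: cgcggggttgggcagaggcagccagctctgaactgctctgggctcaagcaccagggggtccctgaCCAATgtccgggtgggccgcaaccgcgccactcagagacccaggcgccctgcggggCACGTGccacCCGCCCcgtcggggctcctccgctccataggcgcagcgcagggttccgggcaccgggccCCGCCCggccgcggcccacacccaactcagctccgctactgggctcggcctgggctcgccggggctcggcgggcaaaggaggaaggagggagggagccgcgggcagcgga
Acer3: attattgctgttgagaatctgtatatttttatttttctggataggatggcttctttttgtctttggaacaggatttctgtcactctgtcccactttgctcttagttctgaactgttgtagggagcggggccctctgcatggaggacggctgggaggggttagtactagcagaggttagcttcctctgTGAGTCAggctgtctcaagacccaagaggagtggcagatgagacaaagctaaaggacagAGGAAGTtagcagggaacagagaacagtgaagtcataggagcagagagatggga
Sphk2: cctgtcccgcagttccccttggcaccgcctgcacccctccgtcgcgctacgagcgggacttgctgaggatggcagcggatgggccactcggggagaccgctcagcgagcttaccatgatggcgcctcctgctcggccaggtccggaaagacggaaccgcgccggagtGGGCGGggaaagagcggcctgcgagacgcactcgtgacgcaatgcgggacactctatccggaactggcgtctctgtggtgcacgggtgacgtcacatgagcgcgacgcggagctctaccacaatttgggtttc
Sgpl1: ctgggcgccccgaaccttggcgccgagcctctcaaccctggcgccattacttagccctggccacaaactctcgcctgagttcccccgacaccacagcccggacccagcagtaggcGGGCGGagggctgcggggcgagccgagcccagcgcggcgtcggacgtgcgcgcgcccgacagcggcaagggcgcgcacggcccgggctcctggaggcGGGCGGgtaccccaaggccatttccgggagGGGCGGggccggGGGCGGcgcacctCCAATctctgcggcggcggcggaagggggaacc
The Cers6 and Cers2 windows each hold 1 E-box, found in 7.15% of 32851 RefSeq windows of this length, and 1 CCAAT box, found in 37.4%. The Acer3 window holds 1 AP-1 motif and 1 ETS motif, found in 7.81% and 9.35% of windows, and no GC box. GC boxes number 2 in the Cers2 window, 1 in the Sphk2 window and 4 in the Sgpl1 window, which also has 1 CCAAT box; the GC box is a motif that 35.7% of windows hold. None of these 5 windows held a match to the NF-kB, C/EBP, STAT, GATA or TATA letters. Of the windows not shown, that of Acer2 held 3 NF-kB matches, a motif that 8.46% of windows hold. Its matches at bases -180 to -171 and -179 to -170 from the start overlap and are not separate sites. The window of Sphk1 held 1 NF-kB match and 1 TATA match (in 13.6% of windows), and those of Cers5 and Sgpp1 held none of these. Such matches or their lack say nothing about binding of a factor.

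Among the ceramide synthases, Cers6 (chr2:68861441-69114282, GRCm38), whose enzyme prefers long rather than very long acyl chains, had the largest fold changes of the 9 enzymes in both comparisons. Cers6 stood at 64.0 to 93.3 CPM (median 84.8) in ALY688+LPS mice, and at 65.7, 64.7, 96.5 and 102 CPM in LPS mice 2, 6, 7 and 8. Without LPS the Cers6 level was 16.2 to 24.8 CPM (median 20.2) in ALY688 mice and 13.04 to 35.6 CPM (median 22.3) in PBS mice. Each mouse with LPS exceeded each mouse without it, and the highest values without LPS belonged to PBS mice 4 and 7. Cers6 had a log2 fold change of 1.96 ± 0.11 (SE) in ALY688+LPS against ALY688 (edgeR adjusted p = 3.60e-11) and 1.84 ± 0.25 in LPS against PBS (adjusted p = 2.68e-05).

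Cers2 (chr3:95314791-95323599), the synthase of very long acyl chains, changed less. Its level was 52.8 to 64.9 CPM (median 63.7) in ALY688+LPS mice and 58.2, 58.1, 69.6 and 76.3 CPM in LPS mice 2, 6, 7 and 8. It was 33.1 to 44.5 CPM (median 40.8) in ALY688 mice and 34.7 to 48.7 CPM (median 40.9) in PBS mice, and the ranges with and without LPS did not overlap. Cers2 had a log2 fold change of 0.60 ± 0.07 in ALY688+LPS against ALY688 (edgeR adjusted p = 1.52e-06) and 0.68 ± 0.14 in LPS against PBS (adjusted p = 0.0014). Exons of Cers2 share 75 bases with Setdb1 and 144 bases with 6330562C20Rik, both on the opposite strand, and the strand setting of the counting is not given in the sources used here.

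Cers5 (chr15:99734881-99772885), another synthase of long-chain ceramides, was called lower in ALY688+LPS against ALY688 alone, the only decrease called among the enzymes. It stood at 10.7 to 19.8 CPM (median 14.9) in ALY688+LPS mice and 17.1 to 21.5 CPM (median 19.3) in ALY688 mice; 5 of 7 ALY688+LPS mice lay below the lowest ALY688 mouse. Its log2 fold change was -0.38 ± 0.11 (edgeR adjusted p = 0.00591), and the call was lost without TMM scaling (-0.27, adjusted p = 0.642). In LPS mice 2, 6, 7 and 8 Cers5 stood at 17.1, 20.1, 15.7 and 14.6 CPM, against 16.2 to 26.5 CPM (median 16.9) in PBS mice. The groups overlapped there, with a log2 fold change of -0.11 ± 0.15 (edgeR adjusted p = 0.588), and without TMM scaling the value was 1.05 (adjusted p = 0.0414), with a median of all genes of 1.04 under this setting.

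Among the ceramidases, Asah1 (chr8:41340197-41374773), the acid ceramidase of lysosomes, ranked next to Cers6 in fold change. Its level was 50.5 to 72.4 CPM (median 72.1) in ALY688+LPS mice and 52.8, 65.3, 59.1 and 60.7 CPM in LPS mice 2, 6, 7 and 8. It was 14.6 to 25.9 CPM (median 21.3) in ALY688 mice and 12.6 to 35.4 CPM (median 18.5) in PBS mice. No mouse without LPS reached the level of a mouse with it, and PBS mice 4 and 7 were again the highest without LPS. Asah1 had a log2 fold change of 1.62 ± 0.12 in ALY688+LPS against ALY688 (edgeR adjusted p = 8.95e-10) and 1.49 ± 0.24 in LPS against PBS (adjusted p = 0.000136).

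Acer3 (chr7:98206389-98321208), an alkaline ceramidase with a preference for unsaturated ceramides, was low but clearly counted, with 15 to 957 counts per library. Its level was 16.3 to 21.2 CPM (median 18.03) in ALY688+LPS mice and 14.6, 21.9, 14.03 and 19.7 CPM in LPS mice 2, 6, 7 and 8. It was 4.14 to 10.6 CPM (median 5.95) in ALY688 mice and 4.06 to 12.5 CPM (median 5.67) in PBS mice, so the ranges with and without LPS stayed apart. The log2 fold change of Acer3 was 1.51 ± 0.14 in ALY688+LPS against ALY688 (edgeR adjusted p = 2.93e-08) and 1.30 ± 0.25 in LPS against PBS (adjusted p = 0.00074). With the globin percentage as a covariate the call in LPS against PBS was lost at a similar size and a larger SE (1.42 ± 0.53, adjusted p = 0.0572).

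Acer2 (chr4:86874396-86934822), an alkaline ceramidase of the Golgi, varied far more between mice in scaled level than the other ceramidases. Its counts before scaling ran from 424 to 998 in ALY688+LPS mice and from 170 to 1325 in ALY688 mice. Those of Asah1 ran from 199 to 2072 and from 53 to 370. Acer2 ranged over 14.9 to 176 CPM (median 55.4) in ALY688+LPS mice, and stood at 29.5, 9.41, 97.8 and 48.3 CPM in LPS mice 2, 6, 7 and 8. It ranged over 11.2 to 152 CPM (median 72.3) in ALY688 mice and 29.1 to 239.8 CPM (median 108) in PBS mice. All 4 ranges overlapped. The log2 fold change of Acer2 was -0.11 ± 0.45 in ALY688+LPS against ALY688 (edgeR adjusted p = 0.862) and -1.29 ± 0.58 in LPS against PBS (adjusted p = 0.0908). In LPS against PBS it became a call without LPS mouse 7 (-1.95, adjusted p = 0.0243) or without PBS mouse 3 (-1.42, adjusted p = 0.0429) and with DESeq2 (-1.31, adjusted p = 0.0436). Its sign turned with the globin percentage as a covariate (1.42 ± 0.66, adjusted p = 0.118), which did not overlap between LPS and PBS mice. Without the libraries of few detected genes Acer2 had -0.42 in ALY688+LPS against ALY688 (adjusted p = 0.395) and -0.77 in LPS against PBS (adjusted p = 0.254).

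In scaled levels, Acer2 moved with red cell transcripts from mouse to mouse in ALY688+LPS and PBS mice. The summed level of 17 erythroid markers other than globin genes ran from 13859 to 198096 CPM in ALY688+LPS mice, 3999 to 52824 in LPS mice, 30798 to 222877 in ALY688 mice and 28796 to 158395 in PBS mice. Within groups, log2 Acer2 and log2 summed markers had Pearson's r = 0.84 in ALY688+LPS mice (n = 7, exact permutation p = 0.0153, adjusted 0.0306). It was 0.49 in ALY688 mice (n = 10, permutation p = 0.139, adjusted 0.167) and 0.92 in PBS mice (n = 9, exact permutation p = 0.000433, adjusted 0.00225). Spearman's rho was 0.86 in ALY688+LPS mice (n = 7, exact permutation p = 0.0238, adjusted 0.0357), 0.45 in ALY688 mice (permutation p = 0.191, adjusted 0.191) and 0.93 in PBS mice (n = 9, exact permutation p = 0.00075, adjusted 0.00225). The tests were two-sided and adjusted over 6 relations. Both levels of a mouse were divided by its scaling factor, which ran from 0.39 to 1.87 in ALY688+LPS mice and 0.35 to 1.45 in PBS mice. This shared factor can raise r, the permutations did not account for it, and its part was not tested. Without the 2 mice farthest from the median of the markers r was 0.77, -0.10 and 0.89 in these groups, so the relation in ALY688 mice rested on those mice. Without the libraries of few detected genes, an exclusion chosen after seeing the data, r was 0.14 in 9 ALY688 mice and 0.91 in 6 PBS mice, and 5 ALY688+LPS mice were too few. The part of red cell content in the Acer2 levels was not tested, and the 4 LPS mice were too few for a correlation. No correlation of Acer2 with platelet markers was computed, so these values do not show a relation particular to red cells. Median log2 fold changes of platelet and erythroid markers were -1.83 and -1.08 in LPS against PBS, and -0.28 and 0.35 in ALY688+LPS against ALY688. They were -1.02 and -0.32 in ALY688 against PBS, and 0.41 and 1.375 in ALY688+LPS against LPS. Acer2 itself had -1.29, -0.11, -0.72 and 0.48 in these comparisons, in the same order.

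**Figure D3:**
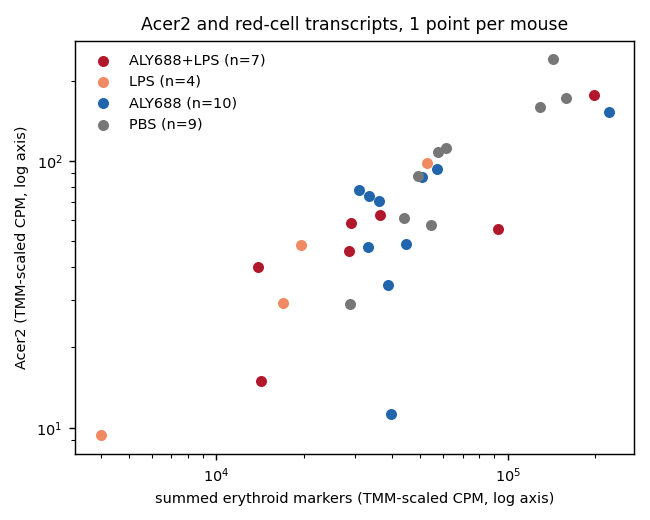
Acer2 level against the summed level of 17 erythroid markers, both in TMM-scaled CPM on log axes, 1 point per mouse, coloured by group (ALY688+LPS, LPS, ALY688, PBS). Points rise together across most of the range, LPS mouse 6 is lowest in both measures (9.41 and 3999 CPM), and ALY688 mouse 1 lies below the rest at 11.2 CPM of Acer2.

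Of the sphingosine kinases, Sphk2 (chr7:45709467-45718002), found in nuclei, mitochondria and the endoplasmic reticulum, made up nearly all kinase counts. Its level was 20.3 to 29.7 CPM (median 25.1) in ALY688+LPS mice and 28.1, 26.8, 28.0 and 28.1 CPM in LPS mice 2, 6, 7 and 8. It was 13.8 to 19.2 CPM (median 16.2) in ALY688 mice and 13 to 22.8 CPM (median 18.1) in PBS mice. The groups compared did not overlap, although the lowest ALY688+LPS mouse lay below the highest PBS mouse. The log2 fold change of Sphk2 was 0.61 ± 0.09 in ALY688+LPS against ALY688 (edgeR adjusted p = 1.09e-05) and 0.66 ± 0.15 in LPS against PBS (adjusted p = 0.00321). The call in ALY688+LPS against ALY688 was lost without TMM scaling (0.72, adjusted p = 0.123), as was that of Cers2 (0.71, adjusted p = 0.118). The call in LPS against PBS was lost with the globin covariate (0.70, adjusted p = 0.0971). Exons of Sphk2 overlap those of Rpl18 over 373 bases (8.97% of the Sphk2 exon length) and those of Dbp over 539 bases (12.96%). Both lie on the opposite strand, and if strand was not used in the counting, reads of these genes cannot be told apart in the overlaps.

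Sphk1 (chr11:116530925-116536674), the cytosolic kinase, was near the limit of detection in blood. It had 1 to 8 counts per library in ALY688+LPS mice (28 in all) and 13, 2, 0 and 7 counts in LPS mice 2, 6, 7 and 8. It had 0 to 5 counts in ALY688 mice (21 in all) and 0 to 4 counts in PBS mice (6 in all). A library reached 3 counts, the upper limit that a count of 0 allows, in 4 of 7 ALY688+LPS mice, 2 of 4 LPS mice, 4 of 10 ALY688 mice and 1 of 9 PBS mice. Sphk1 did not pass the filter on low counts, so no fold change and no test of a difference between groups are given.

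The enzymes that consume S1P differed from each other. Sgpl1 (chr10:61098642-61147703), the lyase of the endoplasmic reticulum, stood at 53.4 to 64.7 CPM (median 61.1) in ALY688+LPS mice and 55.8, 59.8, 66.1 and 70.9 CPM in LPS mice 2, 6, 7 and 8. It stood at 29.7 to 37.5 CPM (median 34.6) in ALY688 mice and 28.0 to 40.4 CPM (median 32.2) in PBS mice, well below every mouse with LPS. Sgpl1 had a log2 fold change of 0.81 ± 0.07 in ALY688+LPS against ALY688 (edgeR adjusted p = 1.61e-08) and 0.89 ± 0.15 in LPS against PBS (adjusted p = 0.000172).

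Sgpp1 (chr12:75714249-75735729), the phosphatase that returns S1P to sphingosine, was not called in either comparison. It stood at 14.6 to 22.5 CPM (median 21) in ALY688+LPS mice and 19.4, 22.3, 18.2 and 20.03 CPM in LPS mice 2, 6, 7 and 8. It stood at 15.4 to 27.7 CPM (median 23.2) in ALY688 mice and 18.3 to 26.8 CPM (median 23.1) in PBS mice, with overlap between all groups. The log2 fold change of Sgpp1 was -0.23 ± 0.12 in ALY688+LPS against ALY688 (edgeR adjusted p = 0.12) and -0.21 ± 0.14 in LPS against PBS (adjusted p = 0.247). With the globin covariate Sgpp1 was called in ALY688+LPS against ALY688 (-0.46, adjusted p = 0.000382).

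Markers of blood cell types were counted in the same comparisons. Of all genes 20.9% were called higher and 17.9% lower in LPS against PBS, and 26.4% and 26.6% in ALY688+LPS against ALY688. In LPS against PBS 13 of 14 neutrophil markers were called higher and in ALY688+LPS against ALY688 14 of 14 were. Their summed level was 5853 to 14034 CPM in ALY688+LPS mice, 4398 to 15040 in LPS mice, 550 to 1507 in ALY688 mice and 604 to 2319 in PBS mice. Of 13 monocyte markers 7 were called higher and 1 lower in each comparison. Their sums were 2557 to 3714 CPM in ALY688+LPS mice, 2717 to 3492 in LPS mice, 1215 to 2665 in ALY688 mice and 1204 to 5360 in PBS mice, with overlap between LPS and PBS. All 12 B cell markers and all 13 T cell markers were called lower in both comparisons. B cell sums were 248 to 1171 CPM in ALY688+LPS mice, 182 to 463 in LPS mice, 1418 to 2936 in ALY688 mice and 1082 to 3331 in PBS mice. T cell sums were 82.3 to 177 CPM in ALY688+LPS mice, 72.4 to 103 in LPS mice, 313 to 758 in ALY688 mice and 212 to 672 in PBS mice. Of 9 NK cell markers 6 were called higher and 0 lower in LPS against PBS, and 3 higher and 1 lower in ALY688+LPS against ALY688. NK cell sums were 173 to 666 CPM in ALY688+LPS mice, 441 to 727 in LPS mice, 108 to 285 in ALY688 mice and 80.2 to 296 in PBS mice. Of 14 tested platelet markers 7 were called lower and 0 higher in LPS against PBS, and 0 in ALY688+LPS against ALY688. Platelet sums were 1592 to 13418 CPM in ALY688+LPS mice, 1864 to 9699 in LPS mice, 1178 to 20086 in ALY688 mice and 2953 to 46115 in PBS mice. Of the erythroid markers 1 of 16 tested was called higher and 3 lower in LPS against PBS, and 4 of 17 higher and 0 lower in ALY688+LPS against ALY688. In the second comparison the NK cell and erythroid counts called higher were near the share of all genes. Of 7 tested globin genes 3 were called lower in LPS against PBS and 0 in ALY688+LPS against ALY688. Apart from globin genes, no marker of these lists was at 0 in a whole group, and their part in the differences of the 6 enzymes was not tested.

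The next comparisons asked whether ALY688 changed these transcripts without LPS and under LPS. In ALY688 against PBS 0 of 9 enzymes passed (edgeR adjusted p from 0.453 for Acer2 to 0.985 for Sgpl1), and 0 of 9 had an unadjusted p below 0.05. Of all 11708 genes 0 passed (0%) and 10.7% had an unadjusted p below 0.05. DESeq2 and limma-voom also called 0 genes, with 1656 and 930 at an unadjusted p below 0.05. Asah1, the ceramidase, averaged 20.97 ± 3.52 CPM in ALY688 mice and 21.2 ± 8.14 CPM in PBS mice (SD, n = 10 and 9), a log2 fold change of -0.02 ± 0.17 with a 95% interval of -0.38 to 0.34. Cers6 averaged 20.8 ± 3.14 CPM in ALY688 mice and 23.0 ± 8.16 CPM in PBS mice (-0.16 ± 0.17, interval -0.52 to 0.20). Sgpl1 averaged 34.1 ± 2.70 CPM in ALY688 mice and 34.0 ± 4.81 CPM in PBS mice (-0.005 ± 0.086, interval -0.18 to 0.17). Leaving Acer2 aside, the intervals of the other 8 enzymes all lay between -0.59 and 0.34. Acer2 averaged 69.7 ± 38.4 CPM in ALY688 mice and 114 ± 66.3 CPM in PBS mice, a log2 fold change of -0.72 ± 0.40 with an interval of -1.55 to 0.12. Without the libraries of few detected genes it was -0.34 (adjusted p = 0.987). No enzyme had groups that stood apart, as no gene did (0%).

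Under LPS, 0 of 9 enzymes passed in ALY688+LPS against LPS (edgeR adjusted p from 0.913 to 0.993) and 0 of 9 had an unadjusted p below 0.05. Of all 12741 genes 0 passed (0%) and 3.63% had an unadjusted p below 0.05. DESeq2 and limma-voom called 0 genes, with 635 and 503 at an unadjusted p below 0.05. Asah1 averaged 64.3 ± 10.4 CPM in ALY688+LPS mice and 59.5 ± 5.14 CPM in LPS mice (SD, n = 7 and 4), a log2 fold change of 0.11 ± 0.14 with a 95% interval of -0.20 to 0.42. Cers6 averaged 80.7 ± 11.9 CPM in ALY688+LPS mice and 82.2 ± 19.8 CPM in LPS mice (-0.03 ± 0.17, interval -0.40 to 0.34). Sphk2, with 25.1 ± 3.21 CPM in ALY688+LPS mice and 27.8 ± 0.624 CPM in LPS mice, had the smallest unadjusted p of the enzymes, 0.207, at a log2 fold change of -0.15 ± 0.11. The intervals of the 8 enzymes other than Acer2 lay between -0.56 and 0.42. Acer2, at 64.8 ± 51.6 CPM in ALY688+LPS mice and 46.3 ± 37.9 CPM in LPS mice, had an interval of -0.94 to 1.91 around 0.48 ± 0.65. The Acer2 value was -0.013 without ALY688+LPS mouse 8, 1.17 without LPS mouse 7 and -0.079 without the libraries of few detected genes. No enzyme had groups that stood apart, which held for 0.102% of genes in the higher and 0.157% in the lower direction.

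The interaction, the log2 fold change of ALY688 under LPS minus that without LPS, was tested over all 4 groups, and 0 of 9 enzymes passed (edgeR adjusted p from 0.519 to 0.969) or had an unadjusted p below 0.05. Of 13476 genes 0 passed (0%) and 9.03% had an unadjusted p below 0.05. DESeq2 called 4 genes, none of them an enzyme of this group, and limma-voom 0, with 1558 and 1006 at an unadjusted p below 0.05. The estimates were 0.13 ± 0.26 for Asah1, 0.12 ± 0.26 for Cers6, 0.20 ± 0.29 for Acer3 and -0.26 ± 0.17 for Cers5. Acer2 had 1.19 ± 0.75 with a 95% interval of -0.35 to 2.74. None of the 17 erythroid markers passed either, although all 17 had a positive value, with a median of 1.73. Values were also positive for 14 of 14 platelet markers (median 1.47), 7 of 7 globin genes (1.89), 12 of 12 B cell markers (0.23) and 13 of 13 T cell markers (0.53). They were positive for 13 of 14 neutrophil and 11 of 13 monocyte markers, and for 0 of 9 NK cell markers (-0.54). The part of these markers in the Acer2 value was not tested. The Acer2 interaction was 0.72 without ALY688+LPS mouse 8, 1.85 without LPS mouse 7 and 0.28 without the libraries of few detected genes (adjusted p = 1.00).

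Other genes of sphingolipid metabolism were described from lists grouped by function, 55 genes in all, with values given for up to 4 called genes per list. De novo synthesis, the route that builds ceramide from serine and palmitate, had 2 of 9 tested genes higher and 2 lower in LPS against PBS, and 3 of 9 higher and 2 lower in ALY688+LPS against ALY688. These shares were close to those of all genes, 20.9% higher and 17.9% lower in LPS against PBS and 26.4% and 26.6% in ALY688+LPS against ALY688. Degs1, the desaturase that makes ceramide from dihydroceramide, had log2 fold changes of 1.02 ± 0.14 in LPS against PBS and 1.13 ± 0.08 in ALY688+LPS against ALY688. Sptlc2, a subunit of serine palmitoyltransferase, had 0.60 ± 0.16 and 0.86 ± 0.07. Kdsr, the reductase that follows serine palmitoyltransferase, was lower at -1.37 ± 0.26 and -1.21 ± 0.18, a call that was lost in LPS against PBS without TMM scaling (-0.29, adjusted p = 0.657). Ormdl3, an inhibitor of serine palmitoyltransferase, was called in LPS against PBS, with 77.6 ± 51.0 CPM in LPS mice and 325 ± 210 CPM in PBS mice (-2.05 ± 0.59, edgeR adjusted p = 0.0119). Its sign turned with the globin covariate (0.77, adjusted p = 0.413). Ormdl2, of the same family, was called higher in ALY688+LPS against ALY688 (0.73 ± 0.17, adjusted p = 0.00117), a call lost without TMM scaling (0.82, adjusted p = 0.102). Of the remaining synthases and ceramidases, Cers4, a synthase of long to very long chains, was lower in both comparisons (-1.64 ± 0.21 in ALY688+LPS against ALY688 and -1.62 ± 0.36 in LPS against PBS). The call against PBS was lost without TMM scaling (-0.65, adjusted p = 0.409). Asah2, the neutral ceramidase, was not called, and Cers1, Cers3 and Acer1 had at most 11 counts over all 30 libraries.

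Sphingomyelin turnover had 4 of 8 tested genes higher and 0 lower in LPS against PBS, and 6 of 9 higher and 1 lower in ALY688+LPS against ALY688, beside 20.9% of all genes higher and 17.9% lower, and 26.4% and 26.6%. Sgms2, a sphingomyelin synthase of the plasma membrane, stood at 34.7 ± 4.04 CPM in ALY688+LPS mice, 30.1 ± 11.3 in LPS mice, 7.02 ± 1.54 in ALY688 mice and 10.6 ± 6.40 in PBS mice. Its log2 fold changes were 2.31 ± 0.13 in ALY688+LPS against ALY688 and 1.51 ± 0.36 in LPS against PBS. Smpdl3a and Smpdl3b, relatives of acid sphingomyelinase, had 1.80 ± 0.10 and 1.85 ± 0.19 in ALY688+LPS against ALY688, and 1.49 ± 0.20 and 1.41 ± 0.25 in LPS against PBS. In the second comparison Smpdl3b was no longer called with the globin covariate (0.73, adjusted p = 0.298). Samd8, which makes a phosphoethanolamine analogue of sphingomyelin, had 0.92 ± 0.10 in ALY688+LPS against ALY688 and 1.17 ± 0.20 in LPS against PBS. Glycosphingolipid turnover had 6 of 13 tested genes higher and 0 lower in LPS against PBS, and 7 of 13 higher and 1 lower in ALY688+LPS against ALY688, beside the same shares of all genes. The lactosylceramide synthases B4galt6 and B4galt5 had 2.56 ± 0.22 and 0.97 ± 0.10 in ALY688+LPS against ALY688, and 2.44 ± 0.39 and 1.40 ± 0.19 in LPS against PBS. B4galt5 lost the second call with the globin covariate (0.92, adjusted p = 0.0611). Galc, the lysosomal enzyme that releases ceramide from galactosylceramide, had 1.81 ± 0.24 in LPS against PBS. The lysosomal activator Gm2a had 0.91 ± 0.10 in ALY688+LPS against ALY688.

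Ceramide transfer and phosphorylation had 1 of 4 genes higher and 1 lower in LPS against PBS, and 2 of 4 higher and 1 lower in ALY688+LPS against ALY688, counts too small to set apart from the 20.9% and 17.9% of all genes, or the 26.4% and 26.6%. Cerk, ceramide kinase, stood at 50.7 ± 18.9 CPM in ALY688+LPS mice, 40.6 ± 8.07 in LPS mice, 113 ± 18.8 in ALY688 mice and 145 ± 61.3 in PBS mice. Cerk had log2 fold changes of -1.15 ± 0.19 in ALY688+LPS against ALY688 and -1.82 ± 0.32 in LPS against PBS. The second of these calls was lost without TMM scaling (-0.62, adjusted p = 0.0793) and with the globin covariate (-0.92, adjusted p = 0.184). Col4a3bp, the ceramide transfer protein, had 0.58 ± 0.11 in ALY688+LPS against ALY688 and 0.58 ± 0.21 in LPS against PBS. The first call was lost without TMM scaling (0.73, adjusted p = 0.128). The second was lost in 7 of 13 fits that left out 1 mouse (0.45 to 0.74) and with the globin covariate (0.76, adjusted p = 0.161). Cptp, a ceramide 1-phosphate transfer protein, had 0.38 ± 0.16 in ALY688+LPS against ALY688, a call lost in 11 of 17 such fits (0.33 to 0.44) and under 6 other settings, among them the fit of all 4 groups (adjusted p = 0.0969) and that without the libraries of few detected genes (adjusted p = 0.0578). Transporters, receptors and lipid phosphatases of S1P had 1 of 8 tested genes higher and 4 lower in each comparison, beside 17.9% of all genes lower in LPS against PBS and 26.6% in ALY688+LPS against ALY688. The lymphocyte receptor S1pr1 stood at 13.98 ± 7.91 CPM in ALY688+LPS mice, 8.06 ± 1.69 in LPS mice, 64.6 ± 16.7 in ALY688 mice and 51.7 ± 17.0 in PBS mice. Its log2 fold changes were -2.21 ± 0.27 in ALY688+LPS against ALY688 and -2.68 ± 0.32 in LPS against PBS. The receptor S1pr2 had 1.02 ± 0.18 in ALY688+LPS against ALY688 and 1.03 ± 0.30 in LPS against PBS, and the second was not called with the globin covariate (1.12, adjusted p = 0.185). The S1P exporter Spns2 had -2.02 ± 0.35 in ALY688+LPS against ALY688 and -2.03 ± 0.40 in LPS against PBS, and the phosphatase Plpp3 had -2.002 ± 0.34 and -1.77 ± 0.45. Without TMM scaling both were no longer called in LPS against PBS (-1.12, adjusted p = 0.178, and -0.68, adjusted p = 0.346). Plpp3 was not called there with the globin covariate either (-2.22, adjusted p = 0.0925). Other calls in LPS against PBS held with the globin covariate but moved in size, to -3.23 for Cers4, -2.27 for Kdsr, 1.07 for Sptlc2, 2.55 for Sgms2 and -3.60 for Spns2. The levels of B cell, T cell, neutrophil and monocyte markers given above moved in the same comparisons, and their part in these differences was not tested.

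**Figure D4:**
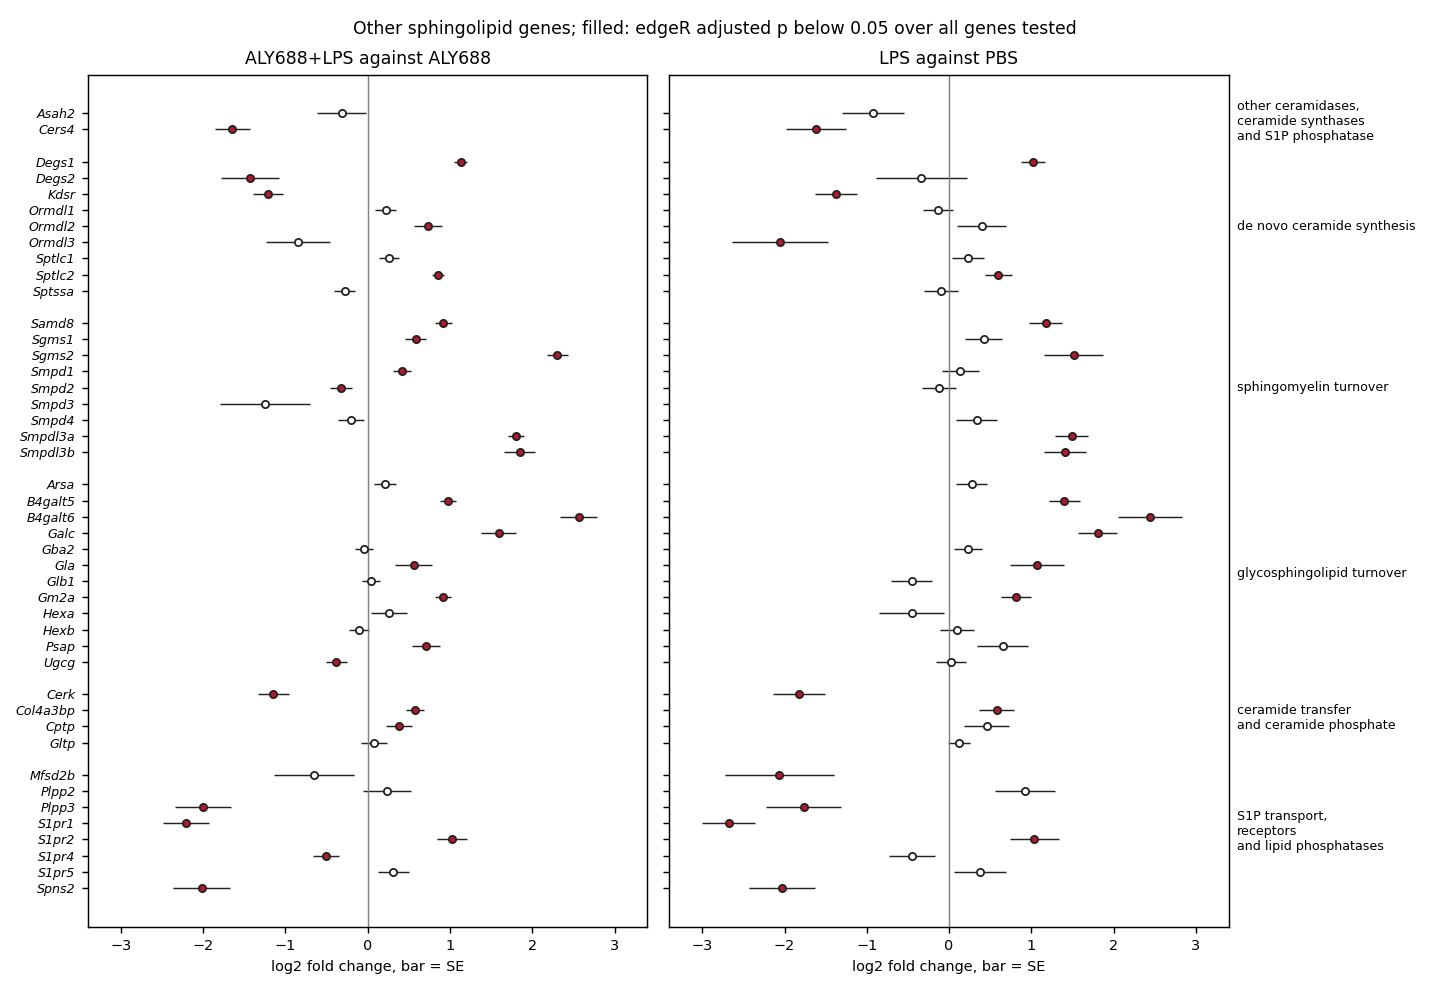
Log2 fold changes (points) and SE (bars) of other sphingolipid genes, grouped by function, in ALY688+LPS against ALY688 and in LPS against PBS; filled points have an edgeR adjusted p below 0.05 over all genes tested. B4galt6, Sgms2, Smpdl3a and Galc lie far to the right of 0 in both panels, and S1pr1, Spns2, Plpp3 and Cers4 far to the left.

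With ALY688 as the difference between groups, no gene of these lists passed. The genes with the smallest unadjusted p in each list were, for ALY688 against PBS, Glb1 (-0.47 ± 0.17), Smpdl3b (-0.57 ± 0.21), Mfsd2b (-0.98 ± 0.47), Cerk (-0.38 ± 0.20), Ormdl3 (-0.70 ± 0.40) and Cers4 (0.24 ± 0.23), with edgeR adjusted p from 0.442 to 0.627. Mfsd2b, the S1P exporter of red cells and platelets, averaged 163 ± 103 CPM in ALY688 mice and 320 ± 282 CPM in PBS mice. Without the libraries of few detected genes the values in ALY688 against PBS were smaller for Glb1 (-0.15), Mfsd2b (-0.27), Cerk (-0.04), Ormdl3 (-0.11) and Cers4 (0.04). For ALY688+LPS against LPS they were B4galt5 (-0.34 ± 0.13), S1pr1 (0.78 ± 0.36), Smpd4 (-0.36 ± 0.21), Degs2 (-0.79 ± 0.52), Cerk (0.31 ± 0.26) and Asah2 (0.40 ± 0.37), all with an adjusted p of 0.913. For the interaction they were B4galt5 (-0.43 ± 0.20), Sgms2 (0.79 ± 0.38), Cerk (0.68 ± 0.33), S1pr3 (-2.03 ± 1.03), Ormdl3 (1.22 ± 0.67) and Asah2 (0.59 ± 0.46), with adjusted p from 0.506 to 0.578.

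Of the adiponectin receptors, Adipor2 followed the pattern of the 6 enzymes. Adipor2 averaged 60.5 ± 5.29 CPM in ALY688+LPS mice (n = 7), 60.8 ± 13.2 in LPS mice (n = 4), 34.7 ± 2.87 in ALY688 mice (n = 10) and 32.4 ± 3.31 in PBS mice (n = 9). Its log2 fold change was 0.81 ± 0.08 in ALY688+LPS against ALY688 (edgeR adjusted p = 3.61e-08) and 0.91 ± 0.15 in LPS against PBS (adjusted p = 0.000223), and the groups did not overlap in either comparison. With ALY688 as the difference it was 0.09 ± 0.07 without LPS (adjusted p = 0.603), -0.01 ± 0.14 under LPS (adjusted p = 0.999) and -0.10 ± 0.15 in the interaction (adjusted p = 0.778). Adipor1, abundant and variable, averaged 1744 ± 1834 CPM in ALY688+LPS mice, 818 ± 530 in LPS mice, 1661 ± 1811 in ALY688 mice and 2008 ± 1140 in PBS mice. With all mice and no covariate, edgeR called Adipor1 in none of the comparisons, with -1.28 ± 0.57 in LPS against PBS (adjusted p = 0.0861), 0.07 ± 0.56 in ALY688+LPS against ALY688 (0.933), -0.27 ± 0.46 in ALY688 against PBS (0.811). It had 1.10 ± 0.74 in ALY688+LPS against LPS (0.913) and 1.36 ± 0.83 in the interaction (0.511). In LPS against PBS it was called by DESeq2 (-1.31, adjusted p = 0.0211), by limma-voom (-1.33, adjusted p = 0.0467) and without LPS mouse 7 (-1.75, adjusted p = 0.0416). In ALY688+LPS against ALY688 it was called higher with the globin covariate (0.86, adjusted p = 0.0175). With 1 mouse left out Adipor1 ran from -0.91 (ALY688 mouse 7) to -0.085 (PBS mouse 5) in ALY688 against PBS and from 0.42 (ALY688+LPS mouse 8) to 1.59 (LPS mouse 7) in ALY688+LPS against LPS. In the interaction it ran from 0.71 (ALY688+LPS mouse 8) to 1.97 (ALY688 mouse 7), and without the libraries of few detected genes it was 0.22.

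Variation between mice of the same group was described by correlating log2 levels, taken as deviations from the group mean, over all 30 libraries. These values are descriptions without a test, and the points share library, depth, scaling factor and globin content. Among the enzymes the highest correlations were Asah1 with Acer3 (r = 0.70) and Asah1 with Cers6 (0.65), followed by Asah1 with Cers2 (0.55) and Cers6 with Sgpl1 (0.54). The lowest was Acer2 with Sgpp1 (-0.57). Against summed marker levels, Cers6 had r = 0.67 with neutrophil and 0.60 with monocyte markers, Acer3 0.45 and Asah1 0.40 with monocyte markers, Sgpp1 -0.73 with erythroid markers, and Cers5 -0.48 with neutrophil markers. Acer2 had 0.78 with erythroid, 0.55 with neutrophil and 0.50 with monocyte markers.

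**Figure D5:**
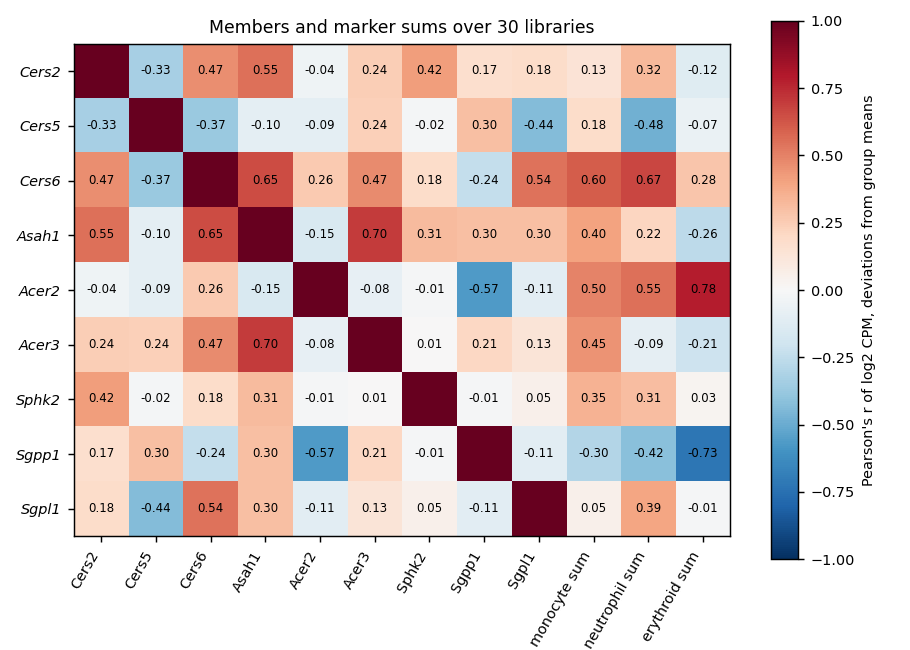
Pearson's r between the 9 tested enzymes, and between each enzyme and the summed levels of monocyte, neutrophil and erythroid markers, from log2 CPM as deviations from group means over 30 libraries; red is positive and blue negative. Asah1, Acer3 and Cers6 form the reddest block among the enzymes (0.47 to 0.70), and Acer2 and Sgpp1 have opposite signs with the erythroid sum (0.78 and -0.73).

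The genes most like each enzyme on the same deviations, among 10577 genes of at least 1 CPM on average, were Tsc22d1 (r = 0.99) and Vsig2 (0.98) for Acer2, which had the closest neighbours of all. Cers6 was most like Xdh (0.92) and Myo1f (0.91), Asah1 most like Clec4a3 (0.85) and Naaa (0.84), and Acer3 most like Naaa (0.85) and Cd68 (0.85), so Naaa, a lysosomal amidase that hydrolyses N-acylethanolamines, was a neighbour of both ceramidases. Sgpp1 was most like Cc2d1b (0.79) and Nrde2 (0.79), Cers2 most like Tnks (0.78) and Sntb2 (0.77), and Sphk2 most like Twf2 (0.78) and Os9 (0.74). Sgpl1 was most like Rnf141 (0.77) and Sema4a (0.69), and Cers5 most like Trip6 (0.74) and Ift27 (0.68).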

How the data were processed

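The authors deposited a table of read counts per gene and library, and the submitters' processing notes name HISAT2 2.0.5 for alignment and featureCounts 1.5.0-p3 for counting; the build, the annotation and the strand setting were not given in the sources used here. Of 54532 gene IDs, 54409 were named from GENCODE M21 on GRCm38. Of 34 labelled samples 30 were analysed; not analysed here were LPS mice 3, 4 and 5 and PBS mouse 10, and 1 further column of values was not used. A replicate is a numbered mouse; the most similar of 108 same-group pairs differed beyond sampling noise (chi-square per degree of freedom 8.02). Counts were tested with edgeR 4.0.16 (quasi-likelihood F test, two-sided, TMM, its default low-count filter; R 4.3.3), with Benjamini-Hochberg adjustment over all genes tested and a threshold of 0.05, using only the groups compared, and all 4 for the interaction. DESeq2 1.42.0 and limma-voom (limma 3.58.1) were among the alternatives. The test was checked on simulated data, where it recovered 30% of 2-fold and 90% of 4-fold changes for LPS against PBS (12353 genes). Recovery was 65% and 94% for ALY688+LPS against ALY688 (12266 genes) and 71% and 93% for ALY688 against PBS. For ALY688+LPS against LPS it was 34% and 81%, and for the interaction 24% and 75%. Only a small part of the genes was changed, in a single draw for each comparison, and genes were drawn independently of each other. Variation shared by many genes, such as that of red cell content, was not simulated, so recovery in the blood data can differ. The enzymes, lists and tests were chosen with earlier results of these data known. All 10 enzymes are named; from other lists, up to 4 called genes with the smallest p, or the 1 with the smallest p where no gene passed. A gene of these lists that the rule would name is counted with its list but not reported here or plotted. Depth limits precision for low counts, and the floor of 3 counts covers counting error only.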

Additional observations from a re-analysis of the deposited data

Results flagged for a closer look

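In 36 groups of levels, each of 1 enzyme in 1 group of mice, the highest or lowest mouse was compared with its nearest neighbour by Dixon's test, which chance alone passes in about 1 in 20 groups. In 3 groups a mouse stood apart. Acer2 was at 176.2 CPM in ALY688+LPS mouse 8, with the next highest mouse at 62.97 CPM. Mouse 8 also had the highest erythroid marker sum of its group, 198096 CPM. Both values were divided by its scaling factor, 0.39, the lowest of the group. Its Acer2 count before scaling was 694, within the 424 to 998 of the group. Cers5 was at 26.52 CPM in PBS mouse 5, with the next highest mouse at 18.92 CPM. Sphk2 was at 26.82 CPM in LPS mouse 6, below the next mouse at 27.97 CPM in a group whose other values lay close together. The first of these libraries and PBS mouse 5 are among the 6 with few detected genes.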

How the results depend on the processing

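In LPS against PBS and in ALY688+LPS against ALY688, Cers6, Asah1 and Sgpl1 kept their direction and their call under all 9 alternatives and whenever 1 mouse was left out. The number of enzymes called was 6 to 7 and 7 to 7 in those comparisons with 1 mouse left out, and 0 to 0 in the 3 tests of ALY688; without TMM scaling it was 4 in ALY688+LPS against ALY688. That setting shifted the median of all genes by 0.47 in ALY688 against PBS, -0.49 in ALY688+LPS against LPS, 1.08 in LPS against PBS, 0.075 in ALY688+LPS against ALY688 and -0.96 in the interaction. The cause of the changes of sign was not tested.

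Without TMM scaling signs turned in ALY688 against PBS for Cers2 (0.49), Cers6 (0.38), Asah1 (0.52), Acer3 (0.36), Sphk2 (0.43), Sgpp1 (0.47), Sgpl1 (0.47), Ormdl3 (0.033), Glb1 (0.17), Cerk (0.27) and Adipor1 (0.13). They turned in ALY688+LPS against LPS for Asah1 (-0.35), Acer2 (-0.063), Acer3 (-0.50), Asah2 (-0.050) and Cerk (-0.25), in LPS against PBS for Cers5 (1.05) and Sgpp1 (0.88), in ALY688+LPS against ALY688 for Adipor1 (-0.051), and in the interaction for Cers6 (-0.80), Asah1 (-0.87), Acer3 (-0.86), Asah2 (-0.31), Sgms2 (-0.20) and Cerk (-0.52). With the globin covariate they turned in ALY688 against PBS for Cers6 (0.11), Asah1 (0.091), Acer3 (0.067), Sgpl1 (0.029), Cers4 (-0.057) and Adipor1 (0.44), in ALY688+LPS against LPS for Acer2 (-0.34), Sgpp1 (0.090), Cerk (-0.016) and Adipor1 (-0.26), in LPS against PBS for Acer2 (1.42), Ormdl3 (0.77) and Adipor1 (1.29), in ALY688+LPS against ALY688 for Acer2 (0.36), and in the interaction for Cers6 (-0.091), Acer2 (-0.21), Sgpp1 (0.32) and Adipor1 (-0.66).

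Without the libraries of few detected genes signs turned in ALY688 against PBS for Cers2 (0.029) and Sphk2 (0.015), in ALY688+LPS against LPS for Acer2 (-0.079), Sgpp1 (0.039), Adipor1 (-0.044) and Adipor2 (0.039), in ALY688+LPS against ALY688 for Adipor1 (-0.39), and in the interaction for Sgpp1 (0.11). With no low-count filter they turned for Asah1 (0.0098) and Sgpl1 (0.023) in ALY688 against PBS and Cers5 (0.020) in LPS against PBS. The fit of all 4 groups turned Sgpl1 (0.0050) and limma-voom Asah1 (0.063) in ALY688 against PBS, and limma-voom turned Cers6 (-0.0060) in the interaction. Size factors of the DESeq2 kind turned Sgpp1 in the interaction (0.0020) and Adipor1 in ALY688+LPS against ALY688 (-0.013), and DESeq2 itself turned the same values (0.0079 and -0.013).

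Mouse numbers gave no clear sign of pairing between groups. The median correlation of same-numbered mice was -0.007 over 9 pairs, -0.37 over 3, -0.02 over 4 and -0.05 over 7, and 0 were most like their own number. The highest single pairs had 0.30, 0.13, 0.13 and 0.21 in the same order, and so few pairs cannot exclude pairing. With a replicate block the number of enzymes called was 6 in LPS against PBS, 7 in ALY688+LPS against ALY688 and 0 in the 3 tests of ALY688. With it S1pr2 was not called in LPS against PBS (0.99, adjusted p = 0.0556), nor Cptp in ALY688+LPS against ALY688 (0.39, adjusted p = 0.146). The replicate block turned the sign of Asah1 (0.074) and Sgpl1 (0.017) in ALY688 against PBS, Asah1 (-0.0095), Acer3 (-0.042) and Asah2 (-0.43) in ALY688+LPS against LPS, Adipor1 (-0.025) in ALY688+LPS against ALY688 and Asah1 (-0.012) in the interaction.

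With 1 mouse left out at a time, values that changed sign ranged in ALY688 against PBS from -0.092 to 0.11 for Asah1 and from -0.034 to 0.025 for Sgpl1; in ALY688+LPS against LPS from -0.14 to 0.073 for Cers6, -0.013 to 1.17 for Acer2, -0.044 to 0.17 for Acer3 and -0.11 to 0.14 for Adipor2; in ALY688+LPS against ALY688 from -0.60 to 0.072 for Acer2 and -0.63 to 0.61 for Adipor1; and in the interaction from -0.0051 to 0.20 for Asah1, -0.070 to 0.032 for Sgpp1 and -0.21 to 0.036 for Adipor2. In LPS against PBS Acer2 ranged from -1.95 to -0.93 and Adipor1 from -1.75 to -0.96, with no change of sign.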
